A study of Mus musculus with 7 samples.

Results

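The 8 mitochondrial tRNA genes that lie on the minus strand of the mouse mitochondrial chromosome (chromosome M), and that are transcribed from the light-strand promoter, were examined by CIRS-seq, a chemical probing assay of RNA structure. They were selected by gene symbol: mt-Tq (tRNA for glutamine), mt-Ta (alanine), mt-Tn (asparagine), mt-Tc (cysteine), mt-Ty (tyrosine), mt-Ts1 (serine, with the anticodon TGA in DNA letters), mt-Te (glutamate) and mt-Tp (proline). All 8 of these genes were found among the 13218 genes of the tables, next to the other 14 mitochondrial tRNA genes, which lie on the plus strand.

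The cells were E14 mouse embryonic stem cells (ESCs), an established line of strain 129/Ola, kept on gelatin with LIF. Their lysate was freed of proteins with Proteinase K and then treated with dimethyl sulfate (DMS), with the carbodiimide CMCT or with neither (NT). The DMS libraries pooled RNA treated at 50 to 200 mM and the CMCT libraries RNA treated at 10 to 50 mM. The NT libraries pooled the untreated aliquots of both lysis buffers, with 2 biological replicates per treatment. Reverse transcriptase (RT) stops 1 base before a modified residue, and what was deposited is how many times this happened at every position of a transcript, as raw counts. All values are therefore from 1 cell line and from RNA without bound protein.

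Mitochondrial tRNAs are cut out of long precursors that cover each strand from end to end. They fold into a cloverleaf with an acceptor stem, a D arm, an anticodon arm and a T arm, and carry modified bases that enzymes encoded in the nucleus add. A modification on the face of the base that pairs, such as N1-methylation of the purine at position 9 by TRMT10C with HSD17B10 or 3-methylcytidine at position 32, stops or slows RT also without a reagent. DMS methylates unpaired A and C, and CMCT reacts with unpaired U and to a lesser extent G. NT libraries therefore show natural stops, and treated libraries show these plus the stops that the reagents add.

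The sequences are given to show where in each tRNA the stops fall, 5′ to 3′ as the minus strand of mm9 (NCBIM37), with the anticodon in capitals. All 8 are whole genes without introns.
mt-Tq, chromosome M, 3772 to 3842: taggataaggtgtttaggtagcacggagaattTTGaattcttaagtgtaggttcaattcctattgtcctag
mt-Ta, chromosome M, 5018 to 5086: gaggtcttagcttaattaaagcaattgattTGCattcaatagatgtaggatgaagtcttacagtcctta
mt-Tn, chromosome M, 5089 to 5159: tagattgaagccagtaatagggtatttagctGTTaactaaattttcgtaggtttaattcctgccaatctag
mt-Tc, chromosome M, 5192 to 5257: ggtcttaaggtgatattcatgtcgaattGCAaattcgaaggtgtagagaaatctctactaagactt
mt-Ty, chromosome M, 5260 to 5326: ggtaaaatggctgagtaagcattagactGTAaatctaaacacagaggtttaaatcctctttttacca
mt-Ts1, chromosome M, 6870 to 6938: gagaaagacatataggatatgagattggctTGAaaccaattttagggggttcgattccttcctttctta
mt-Te, chromosome M, 14071 to 14139: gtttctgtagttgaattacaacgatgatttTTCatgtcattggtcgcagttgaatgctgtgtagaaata
mt-Tp, chromosome M, 15356 to 15422: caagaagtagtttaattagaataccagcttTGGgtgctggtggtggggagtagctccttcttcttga

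Their lengths ran from 66 bases in mt-Tc to 71 bases in mt-Tq and mt-Tn. The share of G and C ran from 33.3% in mt-Ta to 44.8% in mt-Tp. Base 9 was a G in mt-Tq, mt-Tc and mt-Ty, an A in mt-Ta, mt-Tn, mt-Te and mt-Tp, and a C in mt-Ts1, in which the D stem starts 1 base earlier than in the others. RT stops were found only in the 5′ part: the last position with a stop was 32 in mt-Tc and 40 in mt-Tq and mt-Tn, so the T arm and the 3′ side of the acceptor stem were not measured.

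Some facts about the libraries bear on every value below. Each library held 140186204 to 247369982 RT stops after isoforms of a gene were merged, and the 8 tRNAs held 0.00607% to 0.0161% of them. The paper reports fewer reads than this for each treatment over both replicates. The stops can therefore not all be separate reads, and why was not tested. Counting noise and the intervals below take each stop as a separate read. In the RNA-seq library, all 8 ESC markers were detected, from 7.46 alignments per kb per 1000000 alignments for Klf4 to 220.7 for Dppa5a, while the 4 fibroblast markers reached at most 0.235 and the 4 primitive endoderm markers at most 3.05 (Gata6). The 25 bases that follow each position occurred once in mm9 at 42 of 42 positions of mt-Tp and at 29 of 46 of mt-Tq, which held 98.2% to 99.9% of the RT stops of mt-Tq. They occurred once at 18 of 44 positions of mt-Ta and 13 of 41 of mt-Tc, but these held only 1.66% to 16.2% of the stops of mt-Ta and 0% to 0.472% of those of mt-Tc. They occurred once at 0 positions of mt-Tn, mt-Ty, mt-Ts1 and mt-Te, which have copies on nuclear chromosomes 1, 2, 4, 5 or 9. How reads with several places in the genome were counted is not given in the sources used here.

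The replicate counts were compared before they were used. Over all transcripts, at positions with at least 1000 RT stops in both replicates together, the replicate counts differed by at most 1 stop at 23.0% of positions in NT, 20.5% in DMS and 21.4% in CMCT. Counting noise alone would give 2.18%, 2.32% and 2.26%. Yet the median difference over the same positions was 3.01, 4.77 and 9.82 counting SDs, against 0.674 for counting noise, so many other positions differed widely. Both kinds of position were found in the 8 tRNAs. In the anticodon stem and loop, 16 of 18 NT positions with at least 20 stops differed by at most 1 stop between replicates, as did 12 of 15 in DMS and 24 of 28 in CMCT. 5′ of the anticodon arm these numbers were 17 of 87, 5 of 84 and 19 of 98, and 16, 43 and 24 positions were more than 2-fold apart. In mt-Te, position 9 had 2013 and 5235 RT stops in the NT replicates, while position 26 had 457 and 456. At positions where replicates differ by less than sampling noise they cannot count as independent samples, and a p-value from them rests on too small a spread. For every position called below, the replicates were therefore also averaged and counted as 1 sample, with the exact 95% interval of the ratio of shares, which covers counting error only. Where replicates differ by more than counting noise, this interval is too narrow. Replicates lay within 1 counting SD at 7 of the 13 positions called higher and 5 of the 9 called lower in DMS. In CMCT it was 11 of the 16 called higher. The cause of the close counts was not tested.

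**Figure D1:**
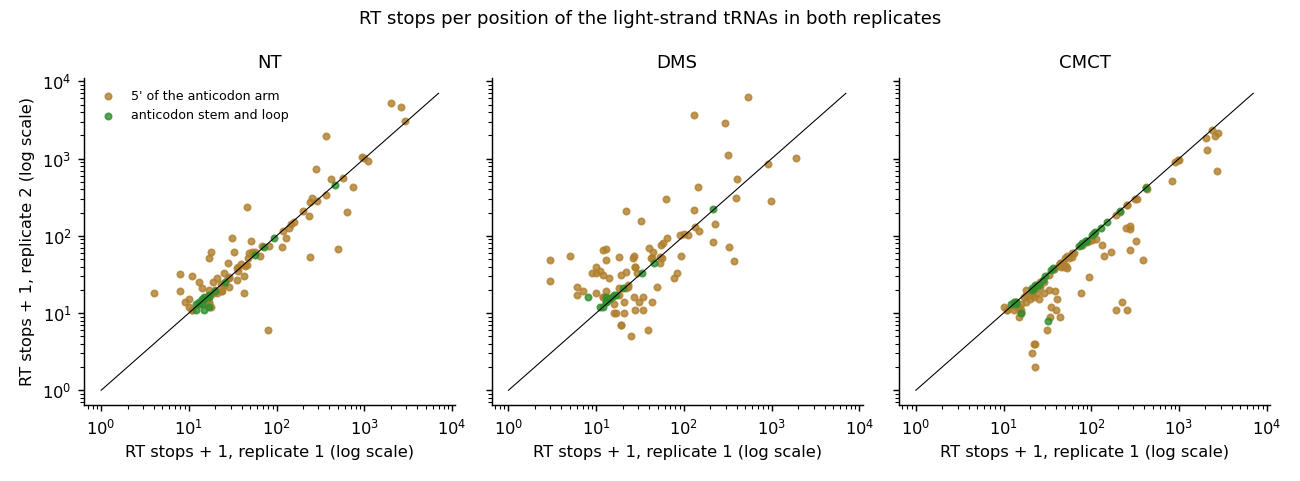
RT stops in replicate 1 (x axis) against replicate 2 (y axis), both plus 1 on log scales, at positions of the 8 tRNAs with at least 20 RT stops in both replicates of NT, DMS or CMCT together. Most green points (anticodon stem and loop) lie close to the line of equal counts, with 16 of 18 NT, 12 of 15 DMS and 24 of 28 CMCT positions within 1 stop and 1 DMS and 1 CMCT position more than 2-fold apart, while brown points (from the 5′ end to the D arm) scatter around it.

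The level of each tRNA was expressed as RT stops per base of the gene per 1000000 RT stops of the library. A low level can mean few molecules or molecules that RT does not copy as far as an end that is sequenced, and these cannot be told apart. In NT, mt-Tn had the highest mean level, 0.537 ± 0.135 (SD, n = 2), followed by mt-Te with 0.513 ± 0.249. Next came mt-Tq with 0.334 ± 0.0210, mt-Tp with 0.233 ± 0.0284 and mt-Ta with 0.148 ± 0.0474. The lowest were mt-Tc with 0.122 ± 0.111, mt-Ts1 with 0.0412 ± 0.00494 and mt-Ty with 0.00355 ± 0.000940. The NT replicates of neighbours in this order overlapped for mt-Tn and mt-Te, mt-Te and mt-Tq, mt-Ta and mt-Tc, and mt-Tc and mt-Ts1. They did not overlap for mt-Tq and mt-Tp, mt-Tp and mt-Ta, or mt-Ts1 and mt-Ty. The order rests in part on 1 position of each tRNA: without the position with most stops, position 9 in 6 of them, mt-Tp (0.184) was above mt-Tq (0.0872), and mt-Ts1 (0.0240) above mt-Tc (0.0161). Among all 22 mitochondrial tRNAs, mt-Tn was 3rd and mt-Ty 21st in NT, and the median NT level was 0.191 over the 8 and 0.134 over the 14 plus-strand tRNAs.

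mt-Ty stood apart at the low end. It had 35 and 46 RT stops in NT, 33 and 89 in DMS, and 139 and 129 in CMCT, so its profile rests on few stops. The opposite case was mt-Tc, in which the replicates disagreed most: 523 and 2163 stops in NT, 286 and 4030 in DMS, and 561 and 212 in CMCT. Its level in DMS was 0.0254 and 0.397, below and above both NT values of 0.0437 and 0.201, so no order of NT and DMS can be read from it.

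In the RNA-seq library, which was made with a kit that does not mark strand, alignments over the 8 genes ran from 38 in mt-Tq and 39 in mt-Tp to 1912 in mt-Ts1. This order differed from that of the RT stops, in which mt-Ts1 was next to last in NT and DMS and 6th of the 8 in CMCT. Reads from the tRNA, from its precursors, from the opposite strand and, where there are any, from nuclear copies cannot be told apart there.

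**Figure D2:**
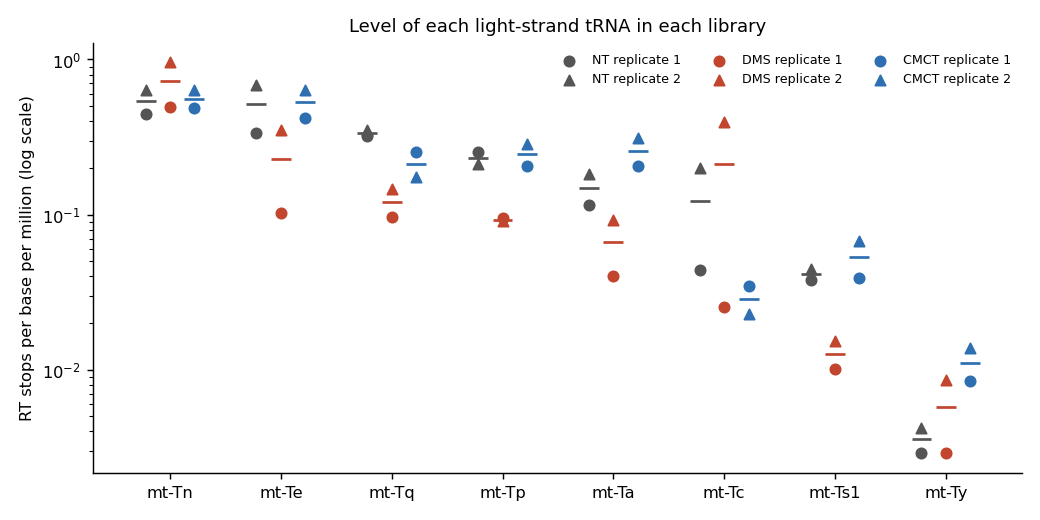
Level of each light-strand tRNA (RT stops per base per 1000000 RT stops, log scale) in each library, ordered by the NT mean. Circles and triangles are replicates 1 and 2 and bars their mean. The DMS points of mt-Tq, mt-Tp, mt-Ta and mt-Ts1 lie below both NT points, and mt-Ty is the lowest of the 8 in every library.

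The NT libraries answer where RT stopped on these tRNAs without a reagent. In 6 of the 8 tRNAs the position with most NT stops was base 9, between the acceptor stem and the D stem, and in all 6 it was a purine. This is the place of the methylated purine described above. Of the 14 plus-strand tRNAs, 9 had their most frequent NT stop at position 9, also a purine in all 9. Base 9 is a purine in most of these tRNAs, 7 of the 8 and 12 of the 14, with or without this stop. On the plus strand, mt-Tl2 (14.3% and 18.6% of NT stops at position 9), mt-Th (0.737% and 0.852%) and mt-Tr (0% and 0%) have a purine there. Their most frequent NT stop lay elsewhere. The median NT share at position 9 was 56.3% of the stops of the tRNA over the 8 and 44% over the 14.

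In mt-Tc, the guanosine at position 9 held 70.4% and 90.4% of the stops in the NT replicates. In mt-Tq, the guanosine there held 70.8% and 76.7%. In mt-Ta, the adenosine at position 9 held 65.7% and 51.3% of the NT stops. The shares were 47.8% and 67.5% at the adenosine of mt-Te, 45.5% and 64.3% at the adenosine of mt-Tn, and 45.7% and 41.3% at the guanosine of mt-Ty, of 35 and 46 stops. The exceptions were mt-Ts1, which has a C at position 9 inside the D stem, and mt-Tp, in which the adenosine at position 9 held 7.68% and 11.8%.

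Besides base 9, there were 8 positions with at least 10% of the NT stops of their tRNA in both replicates. In mt-Tp they made a cluster at the 3′ side of the D loop: uridine 16 held 18.4% and 24.3%, uridine 17 held 11.97% and 14.3%, and guanosine 19, in the D stem, held 23.9% and 18.1%. In mt-Tn it was guanosine 14 of the D loop, with 19.2% and 12.8%. In mt-Ta, cytidine 22 at the 3′ end of the D stem held 19.3% and 35.9%. All 5 lie in the D arm.

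The other 3 were in mt-Ts1 and mt-Te. In mt-Ts1 the most frequent NT stop was uridine 18 of the D stem, with 199 and 208 stops (42.2% and 41.4%). Next was cytidine 29, the first base of the anticodon loop, with 92 and 92 stops (19.5% and 18.3%). In the usual numbering of tRNAs this base is number 32, where METTL8 makes 3-methylcytidine in the mitochondrial tRNAs for serine (UCN codons) and threonine. In mt-Te, guanosine 23, the base between the D stem and the anticodon stem and number 26 in the usual numbering, held 1000 and 1023 stops (23.7% and 13.2%). Its count was the same in both replicates within counting noise, and its share differed, while position 9 had 2013 stops in one replicate and 5235 in the other.

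**Figure D3:**
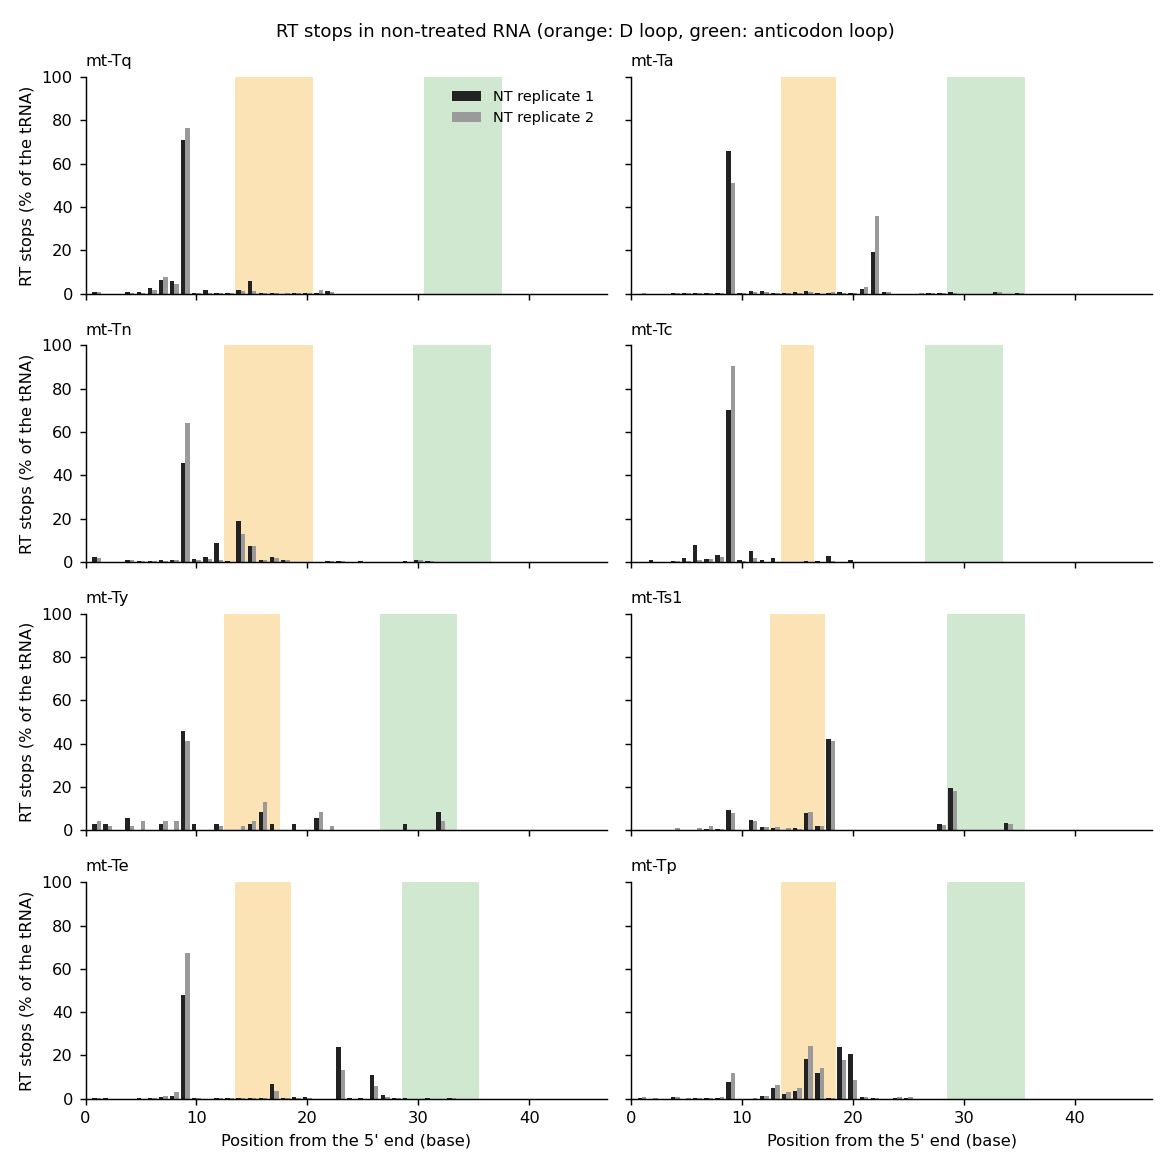
Share of the RT stops of each tRNA (%, y axis) at each measured position from the 5′ end (x axis) in the NT replicates (black and grey bars), with the D loop in orange and the anticodon loop in green. Position 9 is the tallest bar in 6 panels, mt-Ts1 peaks at positions 18 and 29, and mt-Tp peaks between positions 16 and 20.

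Next, the RT stops of each whole tRNA in the treated libraries were compared with NT. DMS lowered 5 of the 8 light-strand tRNAs (62.5%) relative to all other RNAs and raised none. Over all 13216 genes tested, 12.5% were called lower and 13.8% higher. The members share libraries and neighbouring positions of a single precursor, so they are not independent of each other. Their median log2 fold change was -1.78, against 0.01 over all genes. These fold changes are scaled by library size and by TMM factors, the scaling factors of edgeR, so they can differ from changes in level. By library size alone, the 8 held 0.0108% and 0.0161% of all stops in NT and 0.00607% and 0.0143% in DMS, which overlap.

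mt-Ts1 had 472 and 503 stops in NT and 119 and 162 in DMS, a log2 fold change of -2.27 ± 0.33 (SE, adjusted p = 0.000741, edgeR). mt-Tq had 4108 and 4038 in NT and 1171 and 1588 in DMS, a log2 fold change of -2.03 ± 0.31 (adjusted p = 0.000962, edgeR). The groups did not overlap in either. mt-Tp had 3074 and 2325 stops in NT and 1085 and 933 in DMS, and its log2 fold change was -1.87 ± 0.26 (adjusted p = 0.000488, edgeR). mt-Te had 4213 and 7757 in NT and 1209 and 3737 in DMS (-1.80 ± 0.53, adjusted p = 0.0250, edgeR). mt-Ta had 1437 and 2046 in NT and 472 and 978 in DMS (-1.77 ± 0.39, adjusted p = 0.00537, edgeR). In all 5 both DMS counts lay below both NT counts, but per base and library size the higher DMS level of mt-Te, 0.352, was above its lower NT level, 0.337.

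The other 3 were not called. mt-Tn, the tRNA with the highest level, had 5688 and 7320 stops in NT and 5970 and 10493 in DMS (-0.15 ± 0.38). By library size alone its mean level was higher in DMS, 0.7265, than in NT, 0.537, with replicates that overlap. mt-Tc (0.11 ± 0.88) and mt-Ty (0.11 ± 0.49) had wide errors. By library size alone their mean levels were also higher in DMS: 0.211 against 0.122 in mt-Tc and 0.00576 against 0.00355 in mt-Ty. Without NT replicate 2, or without DMS replicate 1, 3 tRNAs instead of 5 were called lower: mt-Ta (-1.23 and -1.33) and mt-Te (-1.01 and -1.21) lost the call. mt-Te also lost it with DESeq2 size factors and with the Wald test of DESeq2 (-1.82 in both), which left 4 tRNAs lowered.

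CMCT lowered 1 of the 8, mt-Tq, which had 4432 and 1729 stops in CMCT (-1.04 ± 0.30, adjusted p = 0.0234, edgeR), and raised none. This is 12.5% of the members against 13.9% of all genes called lower and 15.0% called higher, so it is no more than the background. The call of mt-Tq was lost without NT replicate 1 (-1.22), NT replicate 2 (-0.83), DMS replicate 1 (-1.03) or CMCT replicate 2 (-0.76). mt-Ty had more stops in both CMCT libraries than in both NT libraries (1.22 ± 0.49, adjusted p = 0.0794, edgeR), and mt-Tc had a lower level in both CMCT libraries, 0.0344 and 0.0229, than in both NT libraries (-2.55 ± 0.94, adjusted p = 0.0601, edgeR). The log2 fold changes of the other 5 lay between -0.40 and 0.36. Their CMCT counts were 3487 and 2995 in mt-Ta, 8546 and 6305 in mt-Tn, 667 and 656 in mt-Ts1, 7207 and 6150 in mt-Te, and 3405 and 2696 in mt-Tp.

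Of the 14 plus-strand tRNAs, DMS lowered 5 (35.7%, against 12.5% of all genes) and raised 1 (7.14%, against 13.8%), with a median of -0.98. CMCT raised 2 of them (14.3%), near the 15.0% of all genes, and lowered 0, with a median of 0.48. The largest changes were those of mt-Ts2, the serine tRNA without a D arm (2.49 ± 0.35 under DMS), mt-Tt (-1.62 ± 0.40), mt-Tw (-1.48 ± 0.30) and mt-Th (-1.41 ± 0.32). The difference between the strands was not tested. DMS and CMCT were compared with the same NT libraries.

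**Figure D4:**
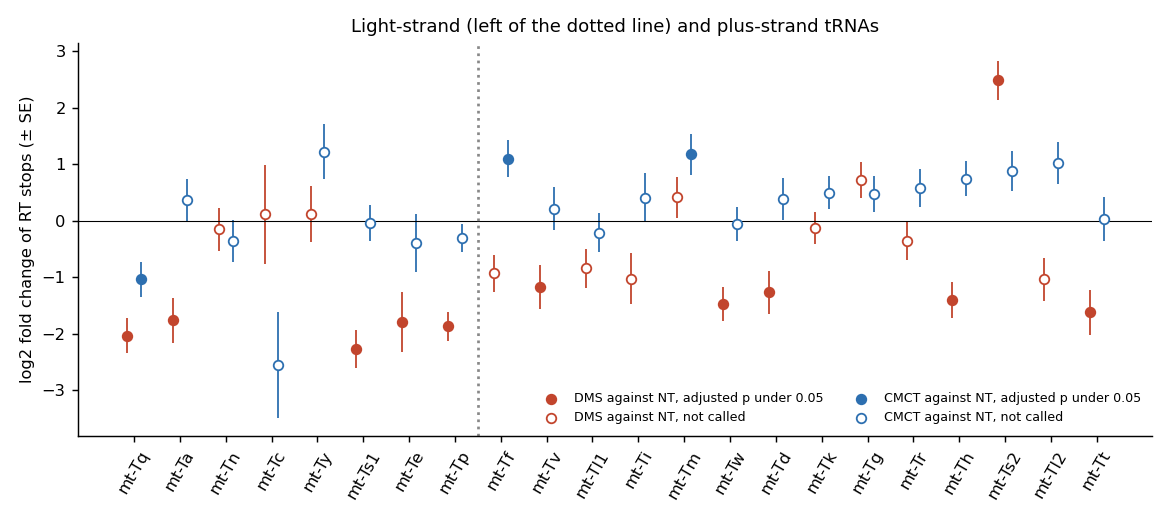
log2 fold change of RT stops per gene (y axis, ± SE, 2 libraries per treatment) of DMS (red) and CMCT (blue) against NT, for the 8 light-strand tRNAs and the 14 plus-strand tRNAs. Filled points have an adjusted p under 0.05 (edgeR), and 5 filled red points of the light-strand tRNAs lie between -2.27 and -1.77.

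To find where the reagents added stops, the share of each position among the stops of its tRNA was compared between treated and NT libraries. Positions with at least 20 stops in at least 2 libraries were tested, 506240 in all and 101 in the 8 tRNAs: 24 in mt-Tn, 20 in mt-Te, 15 in mt-Ta, 14 in mt-Tq, 13 in mt-Tp, 7 in mt-Ts1, 6 in mt-Tc and 2 in mt-Ty. A position can pass this filter through a treated library alone, so the counts below are of tested positions and not of all bases. A fall of 1 large share also lifts all other shares of that tRNA.

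DMS raised 13 of the 101 positions (12.9%) and lowered 9 (8.91%), against 16.8% and 9.51% of all positions, so the numbers are not above the background. Of the 13, 6 were in the D loop, of 25 tested there, and 3 in the anticodon loop, of 17. In paired stems, 2 were in the D stem, of 25 tested, and 2 in the acceptor stem, of 15. By base, 7 of 29 tested A and 4 of 11 C were raised, against 2 of 42 U and 0 of 19 G. DMS is known to methylate A and C, but the share by base over all positions is not given here. By the reactivity described below, 36 of 113 A were highly reactive to DMS, but only 5 of 38 C (13.2%, the lowest share). It was 20 of 117 for U and 15 of 81 for G. These counts leave out only the last 25 bases of each tRNA. A further fit took library size and TMM factors as the scale in place of the stops of the tRNA. In it 3 positions were raised and 30 lowered: positions 32 and 33 of mt-Te and position 16 of mt-Tn were the 3. Position 33 of mt-Ta, 15 of mt-Te, and 1 and 14 of mt-Tp, all A or C, had a negative log2 fold change in it.

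CMCT raised 16 of the 101 (15.8%) and lowered 0, where 6.53% of all positions were raised and 5.66% lowered. However, 11 of the 16 reached 20 stops in 2 libraries only through the CMCT libraries, as did 4 of the 13 raised by DMS through the DMS libraries, so nothing is read from these counts against those of all positions. Of these 16, 8 were in the anticodon loop, of 17 tested, 7 in the D loop, of 25, and 1 was the last base of the anticodon stem of mt-Ta. By base, 12 of 42 U, 3 of 29 A, 1 of 11 C and 0 of 19 G were raised. The split by loop and base is a description of the positions that were tested. The calls rest on 2 NT libraries. Without NT replicate 1, 0 of the 101 positions were raised by DMS and 1 by CMCT, and without NT replicate 2 again 0 and 1. Without CMCT replicate 2, CMCT raised 3. Each of the 11 largest rises per tRNA and reagent lost its call without NT replicate 1 and without NT replicate 2. Of these 11, 6 were tested only because of the reagent's own libraries: uridine 30 of mt-Ta, uridine 30 of mt-Te, uridine 33 of mt-Tn and uridine 13 of mt-Ts1 under CMCT, and adenosine 21 of mt-Tp and uridine 19 of mt-Tq under DMS. The same holds for the other 7 CMCT positions of this kind, which were 5 more of mt-Ta (17, 28, 31, 33 and 35), uridine 34 of mt-Tn and uridine 16 of mt-Te, and for uridine 32 of mt-Te and the first base of mt-Tp under DMS. For all of these positions the counts and any ratio of shares as 1 sample are given as a description, with no p-value. Of the 9 positions lowered by DMS, 9 lost the call without NT replicate 1, 7 without NT replicate 2 and 8 without DMS replicate 2.

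The anticodon of mt-Te (UUC) showed the largest rise under DMS. Its last base, cytidine 33, had 13 and 14 stops in NT, 216 and 221 in DMS, and 24 and 22 in CMCT. Its share rose from 0.309% and 0.180% to 17.9% and 5.91%, a log2 fold change of 5.61 ± 0.74 (adjusted p = 0.0121, edgeR). Its replicate counts lay at most 0.239 counting SDs apart, so the limit given above for close counts applies to this p-value. With the replicates counted as 1 sample the ratio of shares was 37.9 (95% interval 22.1 to 70.4). The uridine before it, position 32, had 2 and 2 stops in NT and 32 and 32 in DMS (ratio of shares 38.7, 95% interval 9.88 to 333.5), and was tested only through the DMS libraries. In the D loop of mt-Te, adenosine 14 had 10 and 29 stops in NT and 56 and 80 in DMS. Under CMCT it was uridine 30, just before the anticodon, that rose most by the fit, from 3 and 3 stops to 76 and 75 (ratio of shares 22.7, 95% interval 7.48 to 112.5). Its call was also lost without CMCT replicate 1 or 2. Uridine 16 of the D loop had 12 and 24 stops in NT and 425 and 398 in CMCT.

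In mt-Ta, 5 bases of the anticodon arm and 1 in the D loop were called higher under CMCT, and all 6 were tested only through the CMCT libraries, so their values are a description. Uridine 30, which precedes the anticodon UGC, had 0 stops in both NT and both DMS libraries and 34 and 35 in CMCT. With 3 of 1742 NT stops, the limit that 0 allows, in place of 0, the ratio of shares was 6.27, and the 95% interval of the ratio ran from 4.84 upward. It was the largest CMCT rise of mt-Ta by the fit, but these values do not show that it exceeded uridine 31 or 17. The call of uridine 30 was lost with the replicate block and without any 1 of the 6 libraries. The next base, uridine 31, is the first of the anticodon and had 1 and 1 stops in NT and 149 and 149 in CMCT (ratio of shares 80.1, 95% interval 14.2 to 3184). Uridine 35 had 2 and 2 in NT and 78 and 79 in CMCT, and uridine 17 of the D loop 3 and 1 in NT and 255 and 253 in CMCT. DMS raised adenosine 14 of the D loop most, from 8 and 8 stops to 17 and 20 of a tRNA with fewer stops in all (log2 fold change 2.54 ± 0.39, adjusted p = 0.0164, edgeR). With library size and TMM factors as the scale the log2 fold change was 0.60 and was not called. The ratio of shares as 1 sample was 5.71 (95% interval 2.385 to 15.07).

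In mt-Tn, the 2 uridines of the anticodon GUU, both tested only through the CMCT libraries, had more stops in CMCT: uridine 33 went from 6 and 6 stops to 128 and 127 (ratio of shares 18.7, 95% interval 8.35 to 51.9), and uridine 34 from 11 and 12 to 210 and 207. DMS lowered the 4 positions 29 to 32, from the end of the stem to the first anticodon base. Cytidine 30 had 55 and 56 stops in NT and 14 and 15 in DMS (ratio of shares 0.212, 95% interval 0.111 to 0.379). Uridine 31 had 25 and 24 in NT, 2 and 2 in DMS, and 107 and 108 in CMCT. DMS raised adenosine 16 of the D loop most, from 48 and 59 to 396 and 548 (log2 fold change 2.84 ± 0.49, adjusted p = 0.0206, edgeR), a call also lost without DMS replicate 1 or 2. The ratio of shares as 1 sample was 6.91 (95% interval 5.20 to 9.33). Replicates of adenosine 16 lay up to 4.95 counting SDs apart, so this interval is too narrow. DMS also raised adenosine 4 of the acceptor stem, from 56 and 60 stops to 129 and 216 (ratio of shares 2.36).

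A fall under DMS at the same place of the loop was seen in mt-Ts1. Cytidine 29, the base with number 32, had 92 and 92 stops in NT, 1 and 1 in DMS, and 85 and 84 in CMCT. Its share was 19.5% and 18.3% in NT, 0.840% and 0.617% in DMS, and 12.7% and 12.8% in CMCT. The log2 fold change under DMS was -4.67 ± 0.27 (adjusted p = 0.00531, edgeR). The replicate counts were equal in NT and in DMS, so this p-value rests on too small a spread. The call was lost without NT replicate 1 (-4.62) and kept when any other single library was left out. The ratio of shares as 1 sample was 0.0376 (95% interval 0.000942 to 0.215). Uridine 18, the largest NT stop of this tRNA, held 34.5% and 31.5% in DMS and was not called. In the D loop, CMCT raised uridine 13, from 6 and 9 stops to 42 and 41 (ratio of shares 3.87, 95% interval 1.80 to 9.54), a call that was lost with the replicate block and without any 1 of the 6 libraries. The fall of guanosine 16 under DMS, from 38 and 42 stops to 4 and 7, was called by edgeR, but the 95% interval of its ratio as 1 sample, 0.180 to 1.23, held 1.

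In mt-Tp and mt-Tq the changes lay in the D arm, at the first base of mt-Tp and at position 8 of mt-Tq. In mt-Tp, DMS raised adenosine 21 most, from 22 and 18 stops to 27 and 38 (ratio of shares 4.42, 95% interval 2.46 to 8.12). With library size and TMM factors as the scale its log2 fold change fell from 2.13 to 0.11 and was not called. Adenosine 14 went from 67 and 73 to 100 and 103, and its log2 fold change was -0.09 with library size and TMM factors as the scale. CMCT raised adenosine 15 most, from 116 and 115 to 423 and 421 (1.68 ± 0.27, adjusted p = 0.0327, edgeR, lost without any 1 of the 6 libraries). Its replicates differed by less than sampling noise, and its ratio of shares as 1 sample was 3.22 (95% interval 2.62 to 3.99). Uridine 17 went from 368 and 332 to 975 and 952 under CMCT. In mt-Tq, DMS raised uridine 19 most, from 7 and 18 to 83 and 32 (ratio of shares 13.2, 95% interval 7.13 to 26.2). Its replicates lay up to 4.76 counting SDs apart, so this interval is too narrow. Its share was 0.170% and 0.446% in NT and 7.09% and 2.02% in DMS. Its call was lost in all 8 other fits run for it, among them that with library size and TMM factors as the scale. In that fit its log2 fold change was 1.51 in place of 3.86. DMS also raised cytidine 22 of the D stem, from 43 and 40 stops to 109 and 100 (ratio of shares 7.38, 95% interval 5.11 to 10.8). With library size and TMM factors as the scale, the log2 fold change of cytidine 22 was 0.72 and was not called. CMCT raised uridine 14, from 64 and 53 to 329 and 299 (3.10 ± 0.51, adjusted p = 0.0328, edgeR), a call lost with the replicate block and without any 1 library but CMCT replicate 1. The ratio of shares as 1 sample was 7.04 (95% interval 5.31 to 9.46). No position of mt-Tc or mt-Ty was called, of 6 and 2 tested.

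Position 9 was not called in any of the 8 tRNAs under either reagent. Its DMS replicates were far apart in 4 tRNAs: in mt-Tn it held 8.94% and 58.8% of the DMS stops, in mt-Te 23.9% and 77.0%, in mt-Tq 26.8% and 69.0% and in mt-Tc 45.5% and 90.9%. DMS replicate 1 had the lower share in 7 of the 8. In CMCT its shares were below both NT replicates in 5 of the 8, such as mt-Tn (30.2% and 31.5%) and mt-Te (29.2% and 20.9%). They overlapped NT in mt-Ta (57.9% and 62.2%) and mt-Ty (37.4% and 41.9%) and were above both in mt-Ts1 (11.5% and 11.6%, against 9.53% and 8.15%).

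**Figure D5:**
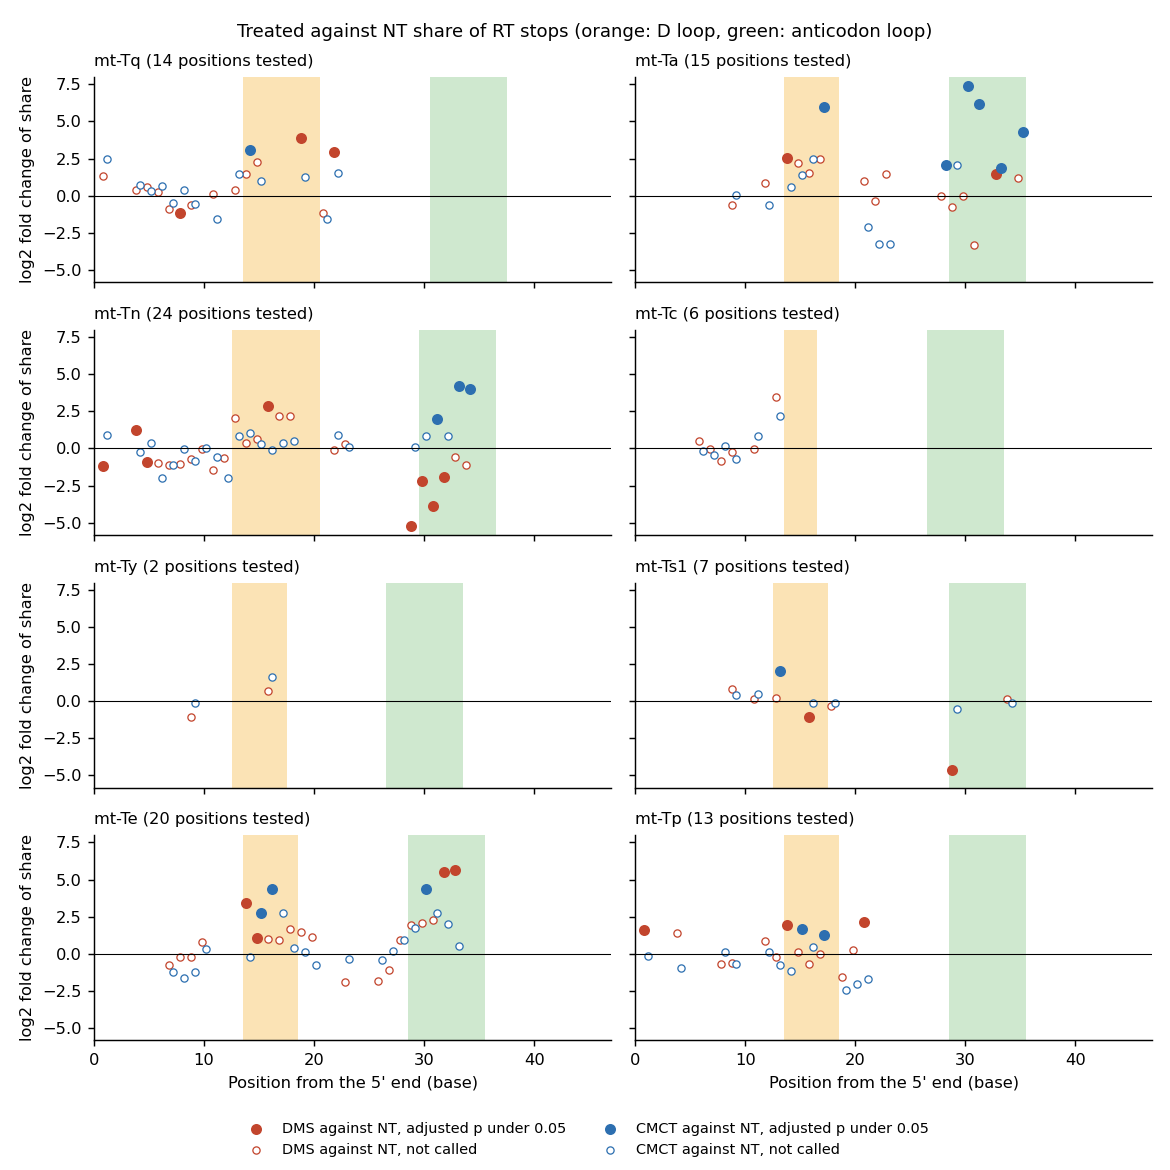
log2 fold change of the share of RT stops at each tested position (y axis) against the position from the 5′ end (x axis), for DMS (red) and CMCT (blue) against NT, with the D loop in orange and the anticodon loop in green. Filled points have an adjusted p under 0.05 (edgeR). Filled blue points lie in or next to a loop, and the highest point, position 30 of mt-Ta, has 0 stops in NT, so that its height is set by the fit.

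Reactivities were computed from the log2 ratio of treated to NT counts, scaled from 0 to 1 in each tRNA. Of the 292 bases of the 8 tRNAs up to the last position with a stop in each, 125 had a reactivity above 0.7 to either reagent and were called highly reactive. The D and anticodon loops held 64 of these (51.2%, 95% Wilson interval 42.5% to 59.8%) among their 97 such bases. In the D loop 30 of 43 bases were highly reactive and in the anticodon loop 34 of 54. In the acceptor stem it was 18 of 56, in the D stem 20 of 60 and in the anticodon stem 17 of 55. With at least 20 treated stops at the base, 55 highly reactive bases were left, 41 of them (74.5%) in the loops and 13 in pairs of the cloverleaf. A high treated count is also what makes a base reactive. Of all 144 bases with at least 20 stops of either reagent, reactive or not, 54 (37.5%) lay in the loops. By tRNA, mt-Tn had 14 of its 19 and mt-Te 9 of its 11 highly reactive bases in the loops, and mt-Ts1 had 5 of its 20. Neighbouring bases are not independent, and these counts are a description.

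The profile of the 8 tRNAs over the 6 libraries was set beside that of every other gene, by the root mean square distance of centred log2 counts scaled to the library. The nearest 5 were the small nucleolar RNAs SNORD105 (distance 0.156), U3 (0.197), SNORD11 (0.228), Snord2 (0.235) and Snord83b (0.249), which guide modification or processing of ribosomal RNA. They were as short as 69 bases for Snord2 and as long as 213 for U3. Like the mean of the tRNAs, each was lowest in DMS replicate 1 and highest in NT replicate 2. This follows from picking them by their distance to that mean. SNORD105 had only 213 stops over the 6 libraries.

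Of 20 nuclear genes that process or modify mitochondrial tRNAs, 12 were tested in the CIRS-seq tables, and DMS lowered 2 (16.7%, near the 12.5% of all genes) and raised 0. Pus1, a pseudouridine synthase, had 2754 and 2455 stops in NT and 1763 and 1529 in DMS (log2 fold change -1.13 ± 0.24). Mto1, which modifies the wobble uridine, had 1820 and 1776 in NT and 1586 and 1464 in DMS (-0.71 ± 0.24). The cytidine methylase Nsun3 (0.73 ± 0.33) and the guanine methylase Trmt1 (0.56 ± 0.34) were not called. CMCT lowered 1, Pus1 (8.33% of the list, against 13.9% of all genes, -1.10 ± 0.24), and raised 0, while Trnt1, which adds CCA, was at 0.65 ± 0.25, Trmt1 at -0.58 ± 0.35 and Gtpbp3, the partner of Mto1, at -0.45 ± 0.23. Of 10 synthetases and transamidase subunits that charge the 8 tRNAs, 3 were tested. Each reagent raised 1 (33.3%) and lowered 1 (33.3%) of the 3, too few to set against all genes. Over all genes DMS raised 13.8% and lowered 12.5%, and CMCT raised 15.0% and lowered 13.9%. Cars2, which charges mt-Tc, went from 38811 and 38620 stops to 11918 and 11758 in DMS (-2.19 ± 0.37) and to 11369 and 11011 in CMCT (-2.27 ± 0.38). Its RNA-seq level was 4.28 alignments per kb per 1000000, against 8.79 for Elac2, which had only 1153 and 719 NT stops. Why Cars2 had so many stops was not tested. Ears2, which charges mt-Te, went from 890 and 746 to 4042 and 3937 in DMS (1.83 ± 0.27) and to 2116 and 1940 in CMCT (0.84 ± 0.27). Gatc was called in neither (0.48 ± 0.34 and 0.13 ± 0.33). All 30 of these genes had RNA-seq alignments, from 0.584 per kb per 1000000 for Trmu to 13.1 for Trnt1, with Trmt10c at 7.67, Hsd17b10 at 9.72 and Mettl8 at 1.24.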

How the data were processed

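The authors deposited raw counts of RT stops per transcript position for each CIRS-seq library, made from reads mapped to mm9 with E14 variants. The processing notes name FastQC 0.10.1, Bowtie 1.0.0, bedtools 2.17.0 and, for RNA-seq, TopHat2 2.0.6. Files that pool replicates were not used. The deposited RNA-seq alignments carry a score of 0 throughout and were counted per gene of GENCODE vM1. The members, gene lists and tests were chosen with earlier results of these data known.

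Counts were summed per gene with each genomic position once, and the quasi-likelihood test of edgeR 4.0.16 (R 4.3.3) was run over all 6 libraries after filterByExpr and TMM, with p-values adjusted by Benjamini-Hochberg and called at 0.05. Positions were tested likewise in 1 transcript per gene, with the transcript's stops as offset. Each SE of an edgeR fold change was derived from the test. It is the absolute log2 fold change divided by the square root of the F statistic. Both fits were tested on simulated data with independent replicates. For positions the simulation took library totals as offset. It therefore tested neither the offset of the transcript's stops nor replicates with close counts. Reactivity used a pseudocount of 1, replicates summed and 90% Winsorising, and left out the last 25 bases. The cloverleaf was placed by a script around the anticodon. Named positions were the largest NT stop, those with at least 10% in both NT replicates, and the largest rise per tRNA and reagent, with other positions added after their values were seen. Named list genes were up to 4 with the largest change. Intervals cover counting error only. Python 3.11.15 was used.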

Additional observations from a re-analysis of the deposited data

How the results depend on the processing

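Of the counts of called genes, called positions and natural stops, the share of reactive bases in loops and the median level, 51 values under alternatives kept close to those reported and 36 moved. Leaving out 1 library at a time gave 3 to 6 tRNAs lowered by DMS, 0 to 2 lowered and 0 to 1 raised by CMCT. It gave 0 to 11 positions raised and 0 to 7 lowered by DMS, and 1 to 10 raised and 0 to 2 lowered by CMCT. With library size and TMM factors as the scale of the position test, DMS raised 3 and lowered 30 positions, and CMCT raised 23 and lowered 3. With at least 50 stops in 2 libraries, DMS raised 8. DESeq2 size factors left 0 tRNAs lowered by CMCT. A threshold of 5% gave 24 natural stops and one of 20% gave 7, in place of 14. Without the position with most stops in each tRNA, the median NT level was 0.0756 in place of 0.191, since the largest stops were removed. The cause of the other shifts was not tested. Over all positions, 85150 were higher and 48152 lower in DMS, and 0 and 0 without NT replicate 1, with 161954 at an unadjusted p under 0.05. Of the values of single tRNAs and positions, 91 kept their call under an alternative with a test, 63 lost it and none changed direction. Of the other positions raised by DMS, 4 changed direction with library size and TMM factors as the scale: position 33 of mt-Ta (-0.49), 15 of mt-Te (-0.71), and 1 (-0.37) and 14 (-0.09) of mt-Tp.

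The labels do not say what a replicate number marks. The correlation of the deviations of same-numbered libraries was 0.553 for NT and DMS, 0.010 for NT and CMCT and -0.107 for DMS and CMCT, so pairing was not shown for all 3 treatments and the block was left out of the reported fit, although NT and DMS libraries of the same number deviated together. With the replicate block, CMCT raised 1 tRNA and lowered 2, and the position test raised 10 and lowered 8 positions under DMS and raised 11 under CMCT. Over all genes the block raised the calls under DMS from 1829 higher and 1656 lower to 2598 and 3018, and under CMCT from 1984 and 1843 to 2680 and 2350. With DESeq2's Wald test or DESeq2 size factors, DMS lowered 4 tRNAs. Averaging replicates as 1 sample gives an interval and no test and was chosen after seeing the data, as was computing reactivity over the bases up to the last position with a stop, with 51.8% of highly reactive bases in the loops in place of 51.2%.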
